A study of Mus musculus with 8 samples.

Results

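Olfr1465, Olfr1462, Olfr401, Olfr574, Olfr1230 and Olfr917 are odorant receptor (OR) genes whose mRNAs did not fall in mice with Lhx2 deleted from olfactory sensory neurons (OSNs), in a dataset where most ORs did. They were selected on the difference between knockout and control arrays, so that difference is given below as a description, without a test. They are 6 of the 27 OR transcript clusters whose mean was at or above that of the controls, among 1023 OR clusters with a single gene symbol, which represent 1015 OR genes. A transcript cluster is the set of probes that the array design assigns to the exons of one gene. Each of the 6 receptors has 1 cluster.

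The tissue was olfactory mucosa of 8 juvenile mice at postnatal day 26 (P26), on a mixed 129 x C57BL/6J background, and the RNA of each mouse was measured on 1 array. The 4 knockout mice were OmpCre:Lhx2(fl/fl), in which Cre recombinase inserted at the Omp locus can recombine both Lhx2 alleles once an OSN is mature. The 4 littermate controls carried 1 floxed allele: controls 2, 3 and 4 were OmpCre:Lhx2(fl/+) and control 1 was Lhx2(fl/+) without Cre. Mice of both sexes entered the experiments, and the numbers 1 to 4 within a group only name the mice. The mouse numbers in the sample titles begin with 5, 7 or 9, and these 3 title series, of 2, 1 and 1 knockout arrays with as many controls, were treated as a possible batch. Mucosa is a mixed tissue, so on these arrays fewer OSNs expressing a receptor and less mRNA in each such OSN cannot be told apart. By in situ hybridization, the paper associates the decreases with fewer OSNs expressing each receptor tested. Its counts of cells labeled for Olfr1465, which were very few, did not differ between knockouts and controls. With array values scaled to mature OSN mRNAs, the paper reports significant increases of Olfr1465, Olfr401, Olfr574 and Olfr1462. The main values below do not use that scaling.

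Each mature OSN expresses 1 allele of 1 OR gene and silences the rest, so the mRNA of any single receptor in whole mucosa comes from a small subset of neurons. OR genes lie in genomic clusters and fall into class I, the older class, and class II. The transcription factor Lhx2, which has LIM domains and a homeodomain, binds AT-rich homeodomain motifs in OR promoters and enhancers. Olfr574 is a class I receptor, and the other 5 are class II receptors.

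The sequence at the start of each gene was examined first. The RefSeq window of a gene (GRCm38.p6) holds 250 bases before and 50 bases from its annotated start, and all 6 genes were matched. In each of the 6 the annotated start is an ATG, as in 685 of 944 OR windows (72.6%), so the windows are not mapped promoters. The homeodomain motif TAATTA, the motif TAATTG and the motif TAATGA were searched on both strands. TAATTA reads the same on both, and none of the 3 contains another. The windows of Olfr1465 (chr19:13314234-13314533, minus strand) and Olfr1462 (chr19:13190419-13190718, plus strand) are shown because the 2 genes lie in the same OR cluster, with the homeodomain match in capitals.
Olfr1465: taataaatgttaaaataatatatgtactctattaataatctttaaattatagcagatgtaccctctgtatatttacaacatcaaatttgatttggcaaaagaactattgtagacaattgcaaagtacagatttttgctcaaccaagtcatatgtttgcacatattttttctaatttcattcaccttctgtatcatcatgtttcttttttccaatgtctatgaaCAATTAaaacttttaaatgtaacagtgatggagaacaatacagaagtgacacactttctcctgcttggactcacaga
Olfr1462: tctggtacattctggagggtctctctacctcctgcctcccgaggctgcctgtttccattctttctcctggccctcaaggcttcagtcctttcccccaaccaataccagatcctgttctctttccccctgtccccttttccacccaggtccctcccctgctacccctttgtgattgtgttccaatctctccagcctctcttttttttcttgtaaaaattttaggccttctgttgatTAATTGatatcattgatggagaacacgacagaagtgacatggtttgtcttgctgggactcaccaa
Olfr1465 held TAATTG on its reverse strand 27 bases before the start, and Olfr1462 held it on the forward strand 15 bases before the start. They shared the letter at 40 of the 50 positions from the start and at 74 of the 250 positions before it, and the GC content was 28.7% in Olfr1465 and 48.7% in Olfr1462, against a median of 35.0% over OR windows. The windows of Olfr1230 (chr2:89297219-89297518, minus strand) and Olfr574 (chr7:102948217-102948516, plus strand) are shown because they hold the other matches, again in capitals.
Olfr1230: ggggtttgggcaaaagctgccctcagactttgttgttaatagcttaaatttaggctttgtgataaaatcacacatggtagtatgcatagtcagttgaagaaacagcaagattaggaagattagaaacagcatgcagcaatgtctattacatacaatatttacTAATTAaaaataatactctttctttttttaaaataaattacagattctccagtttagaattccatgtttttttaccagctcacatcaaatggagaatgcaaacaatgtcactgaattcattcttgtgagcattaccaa
Olfr574: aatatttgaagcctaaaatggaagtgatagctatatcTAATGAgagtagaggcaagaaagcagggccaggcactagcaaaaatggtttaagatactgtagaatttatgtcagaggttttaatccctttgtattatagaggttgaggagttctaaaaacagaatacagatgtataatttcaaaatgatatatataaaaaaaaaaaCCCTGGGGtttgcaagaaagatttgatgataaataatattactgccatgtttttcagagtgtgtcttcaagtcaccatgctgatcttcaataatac
Olfr1230 held TAATTA 88 bases before the start. Olfr574 held TAATGA 213 bases before the start and, as the second run in capitals, CCCNNGGG, a motif like those bound by O/E (Ebf) factors, 46 bases before it. Olfr401 and Olfr917 held none of the 4 motifs.

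Homeodomain letters were about as frequent in these 6 windows as in other OR windows. A match to any of the 3 homeodomain motifs was found in 4 of the 6, in 53.8% of the 944 OR windows and in 19.9% of all 32851 windows. TAATTA alone was in 1 of the 6 and 18.6% of OR windows, TAATTG in 2 of the 6 and 23.2%, and TAATGA in 1 of the 6 and 28.8%. CCCNNGGG was in 1 of the 6, in 3.07% of OR windows and in 13.7% of all windows. A match is a description of letters and not a binding site.

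Olfr401 and Olfr917 each have an OR gene next to them with a similar start window, and these neighbours fell in the knockouts. Olfr401 (chr11:74121041-74121340, plus strand) and Olfr402 (chr11:74154906-74155205, plus strand) had the same base in 251 of 318 columns of a global alignment (78.9%). They are shown with homeodomain matches in capitals.
Olfr401: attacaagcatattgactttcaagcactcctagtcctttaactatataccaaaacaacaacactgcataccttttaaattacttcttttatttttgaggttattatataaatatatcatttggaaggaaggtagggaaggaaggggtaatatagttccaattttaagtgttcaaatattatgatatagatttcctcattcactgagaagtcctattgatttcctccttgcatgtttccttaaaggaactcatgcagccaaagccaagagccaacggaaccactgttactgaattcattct
Olfr402: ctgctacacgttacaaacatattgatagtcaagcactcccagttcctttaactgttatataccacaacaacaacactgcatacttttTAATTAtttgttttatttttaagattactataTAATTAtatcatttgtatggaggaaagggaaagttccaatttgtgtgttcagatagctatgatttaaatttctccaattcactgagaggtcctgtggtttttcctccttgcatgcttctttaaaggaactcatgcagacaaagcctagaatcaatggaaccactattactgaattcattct
Olfr402 held TAATTA 163 and 131 bases before its start, and Olfr401 held no match. This contrast was not general. Olfr1463, Olfr1461 and Olfr575, neighbours of other receptors of the 6 that also fell, held no homeodomain match. Of the 44 windows matched to OR neighbours of the 6 receptors, 23 held a homeodomain match (52.3%), near the 53.8% of OR windows. Olfr917 (chr9:38665793-38666092, minus strand) and Olfr916 (chr9:38658341-38658640, minus strand) matched in 247 of 330 columns (74.8%). Neither held a homeodomain match, so here the capitals mark instead the bases that do not pair with the same base in the other window.
Olfr917: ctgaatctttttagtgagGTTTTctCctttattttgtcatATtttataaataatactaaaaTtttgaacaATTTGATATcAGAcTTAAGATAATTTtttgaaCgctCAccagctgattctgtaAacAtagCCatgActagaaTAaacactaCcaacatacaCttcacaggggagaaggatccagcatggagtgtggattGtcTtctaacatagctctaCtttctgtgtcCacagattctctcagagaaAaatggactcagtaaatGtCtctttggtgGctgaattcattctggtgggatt
Olfr916: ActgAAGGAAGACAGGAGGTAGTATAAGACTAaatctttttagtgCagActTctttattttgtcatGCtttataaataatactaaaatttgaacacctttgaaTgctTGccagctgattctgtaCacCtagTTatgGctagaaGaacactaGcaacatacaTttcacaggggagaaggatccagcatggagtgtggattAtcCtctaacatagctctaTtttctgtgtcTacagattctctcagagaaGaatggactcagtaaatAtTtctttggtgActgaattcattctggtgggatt
In both pairs the neighbour was, of the 939 other OR genes compared, the one whose window was most identical. Values of both pairs are given below. The probe sequences were not used here, and whether related receptors share probe signal was not tested.

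The knockout was read first from the targeted gene. Lhx2 was at 12.03, 11.99, 12.17 and 12.16 on the log2 scale in the knockout arrays, against 12.39, 12.33, 12.29 and 12.33 in the controls. All knockout arrays were below all controls, with a difference of -0.25 ± 0.06 (SE, adjusted p = 0.0383, limma). Mucosa also holds cells without Cre, and the cluster combines exons beyond the floxed ones, so this value does not measure deletion per OSN. Across 23410 clusters with a gene symbol, 6.29% were called lower and 2.1% higher in knockouts at an adjusted p under 0.05. Of the 1023 OR clusters, 853 were called lower (83.4%) and none was called higher (0%), with a median change of -1.04.

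All 6 receptors had knockout means at or above their control means, and the differences were small. They lay between 0.00 and 0.31 on the log2 scale, that is up to 1.24-fold, against the median fall by 1.04 of all OR clusters. Olfr917, Olfr1230, Olfr1465 and Olfr401 lay between 0.22 and 0.31, and Olfr574 and Olfr1462 were within 0.02 of 0. In none of the 6 were all knockout arrays above all controls (0%, as among all 1023 OR clusters), against 6.42% of all clusters tested.

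Olfr1465, on chromosome 19, had values of 6.23, 6.35, 6.29 and 6.44 in knockouts 1 to 4, against 5.92, 5.99, 6.32 and 6.08 in controls 1 to 4. Control 3 lay within the knockout range, and the other 3 controls lay below every knockout. The means were 6.33 ± 0.089 in knockouts and 6.08 ± 0.175 in controls (SD, n = 4 each), a difference of 0.25 ± 0.09 (SE) or 1.19-fold. The difference was 0.34 within title series 5, -0.03 in series 7 and 0.36 in series 9. It was present in series 5 and 9 only.

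Olfr1462, also on chromosome 19, was level across all 8 arrays. It had 5.04, 5.05, 5.12 and 5.01 in knockouts and 4.98, 5.09, 5.08 and 5.05 in controls, with a mean of 5.05 ± 0.047 in each group (SD, n = 4 each). The difference was 0.00 ± 0.06 (SE). Its sign depended on the scaling: it was 0.06 after subtracting the median of each array and -0.05 after quantile normalization.

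Olfr401, on chromosome 11, was the only one of the 6 with a level near the middle of the OR range. Its values were 8.24, 8.27, 8.39 and 8.31 in knockouts, against 8.09, 7.86, 8.08 and 8.31 in controls. Control 4 matched knockout 4, and the other controls were lower than every knockout. The means were 8.30 ± 0.065 in knockouts and 8.08 ± 0.184 in controls (SD, n = 4 each), which differed by 0.22 ± 0.09 (SE), or 1.16-fold. Within title series the difference was 0.28 in series 5, 0.31 in series 7 and 0.00 in series 9.

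Olfr574, on chromosome 7, had values of 5.74, 5.74, 5.68 and 5.67 in knockouts and 5.68, 5.60, 5.66 and 5.81 in controls. The groups overlapped fully: control 4 was above every knockout. The difference was 0.02 ± 0.06 (SE), with means of 5.71 ± 0.039 in knockouts and 5.69 ± 0.087 in controls (SD, n = 4 each). The sign turned with the scaling here too, at 0.08 after subtracting array medians and -0.03 after quantile normalization.

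Olfr1230, on chromosome 2, had values of 6.46, 6.17, 6.39 and 6.59 in knockouts, against 5.95, 6.00, 6.03 and 6.41 in controls. Control 4 stood apart from the other 3 controls and lay among the knockouts. The means were 6.40 ± 0.177 in knockouts and 6.10 ± 0.209 in controls (SD, n = 4 each), a difference of 0.30 ± 0.12 (SE) or 1.23-fold. This was the only receptor of the 4 with larger differences that stayed above 0.1 in every title series, at 0.33, 0.36 and 0.19 in series 5, 7 and 9.

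Olfr917, on chromosome 9, had the highest difference of all OR clusters. Its values were 6.61, 6.79, 7.09 and 6.72 in knockouts, against 6.48, 6.24, 6.45 and 6.81 in controls. Control 4 was above knockouts 1, 2 and 4. The means were 6.80 ± 0.205 in knockouts and 6.50 ± 0.235 in controls (SD, n = 4 each), which differed by 0.31 ± 0.13 (SE), or 1.24-fold. The difference was 0.34 in series 5, 0.64 in series 7 and -0.09 in series 9.

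**Figure D1:**
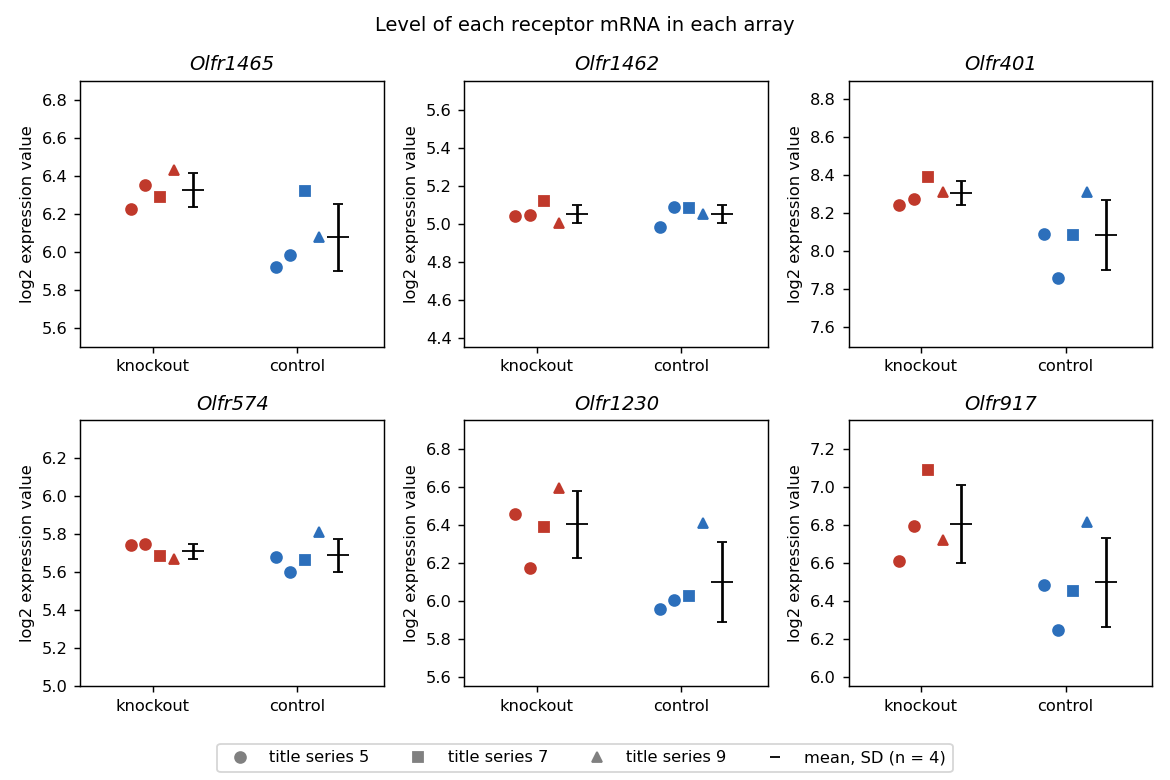
Level of each of the 6 receptor mRNAs (vertical axis, log2 expression value, the same span in every panel) in each of the 4 knockout arrays (red, left) and 4 control arrays (blue, right). Marker shape gives the title series and the bars give the mean and SD. The groups overlap in every panel, and control 4 of series 9 (blue triangle) is the highest control for Olfr401, Olfr574, Olfr1230 and Olfr917.

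Control 4 was also the control array with the highest level of receptors that are read out near background in this tissue. Over the 170 clusters of vomeronasal receptors, which belong to the vomeronasal organ and not to OSNs of the olfactory epithelium, the array means were 4.61, 4.70, 4.63 and 4.66 in knockouts and 4.48, 4.45, 4.53 and 4.65 in controls. These means were higher in all knockouts than in controls 1 to 3. The mean over the 6 receptors had the same order of groups, at 6.39, 6.40, 6.49 and 6.46 in knockouts and 6.18, 6.13, 6.27 and 6.41 in controls. Vomeronasal receptor clusters had a median change of 0.10, and 140 of the 170 were above 0. Over all 23410 clusters the median change was 0.05, with 66.6% above 0. The part of this low-level shift in the differences of the 6 receptors was not tested.

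The 6 receptors were dim for ORs. Their control means ran from 5.05 (Olfr1462) to 8.08 (Olfr401), all below the OR median of 8.26. Olfr1462 stood at the 2.83rd percentile of OR clusters by control level, Olfr574 at 5.47, Olfr1465 at 7.14, Olfr1230 at 7.43, Olfr917 at 10.8 and Olfr401 at 43.6. No vomeronasal receptor cluster had a control mean as high as that of Olfr401, and 2 of 170 were as high as Olfr917, 6 as Olfr1230, 7 as Olfr1465, 18 as Olfr574 and 39 as Olfr1462. Probe sets differ in brightness, so these positions compare signals and not numbers of transcripts.

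The fall of OR mRNAs was itself smaller among dim clusters. With OR clusters ordered by control level and split into 10 bins, the dimmest bin, which holds Olfr1462, Olfr574, Olfr1465 and Olfr1230, had a median change of -0.38. In it 17 of 103 clusters were at or above 0 and 49 were called lower. The next bin, with Olfr917, had a median of -0.68, with 7 of 102 clusters at or above 0 and 71 called lower. The fifth bin, with Olfr401, had a median of -1.05, and 94 of its 103 clusters were called lower while 2 were at or above 0. Of the 6, Olfr401 lay furthest above the median of its own bin.

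**Figure D2:**
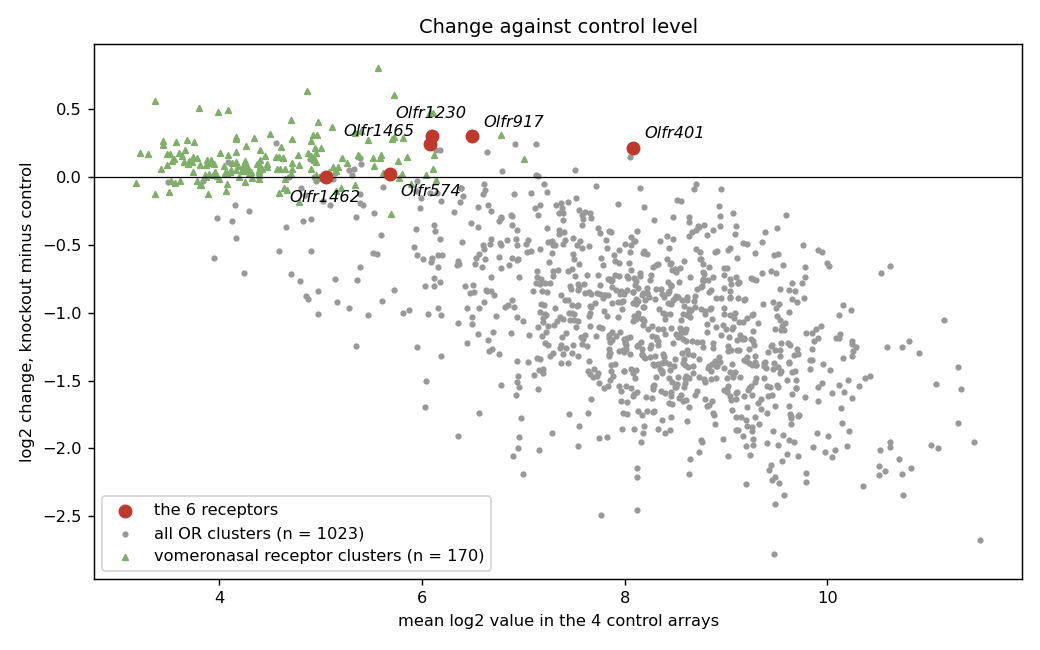
Change of each cluster (vertical axis, knockout minus control, log2) against its mean in the 4 control arrays (horizontal axis, log2). The 6 receptors (red) are named, 1023 OR clusters are grey and 170 vomeronasal receptor clusters are green triangles. Of the 6, 5 lie at control levels that vomeronasal receptor clusters also reach, while Olfr401, at 8.08, lies to the right of all vomeronasal receptor clusters.

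The line between falling and not falling was a continuum in these data. Of 1023 OR clusters, 996 had a change below 0 and 27 (2.64%) a change of 0 or more. The smallest values inside were 0.01 (Olfr161), 0.003 (Olfr1462) and 0.002 (Olfr832), and the nearest outside were -0.0004 (Olfr1436), -0.016 (Olfr993) and -0.028 (Olfr1457). All 27 clusters at or above 0 had control levels below the OR median, between 4.09 and 8.08. By rank of change Olfr917 was 1st, Olfr1230 2nd, Olfr1465 4th, Olfr401 7th, Olfr574 22nd and Olfr1462 26th. Receptors outside the 6 stood among them, such as Olfr891 at 0.25 (3rd), Olfr225 at 0.25 and Olfr371 at 0.24. The 27 lay on 8 chromosomes, with 8 on chromosome 7, 7 on chromosome 2 and 5 on chromosome 9. For 2 receptors on chromosome 7, control 1 stood well below the other controls. Olfr547 was at 5.36 against 6.17 to 6.57, and Olfr631 at 4.66 against 5.42 to 5.71. Olfr574, on the same chromosome, did not show this.

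**Figure D3:**
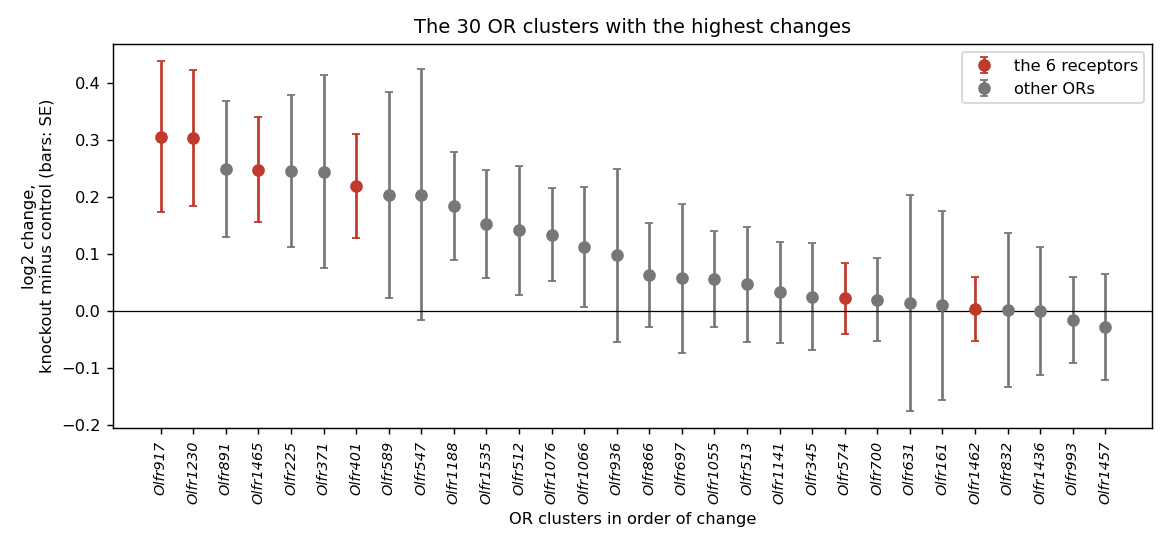
The 30 OR clusters with the highest changes, in order of change (vertical axis, knockout minus control, log2, bars SE). The 6 receptors (red) are spread through the 27 clusters at or above 0, from Olfr917 at 0.31 to Olfr1462 at 0.003, with other ORs (grey) between them.

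Most OR genes beside the 6 receptors fell. For each receptor the 5 measured OR genes nearest on each side in the same run of OR genes were taken by position, 51 distinct genes in all, of which 9 were shared by Olfr1465 and Olfr1462. At an adjusted p under 0.05, 45 were called lower (88.2%), none higher and 6 were not called. Their median change was -1.19, beside 83.4% called lower and a median of -1.04 over all OR clusters. None of the 51 had a change of 0 or more. They were not matched to the 6 receptors by level, and most were brighter in controls than the receptor beside them. In 46 of the 51 all knockout arrays were below all controls, beside 865 of 1023 OR clusters (84.6%). The median was -1.10, -1.03 and -1.36 within title series 5, 7 and 9.

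The chromosome 19 pair showed the sharpest step, between clusters of unlike level. In controls Olfr1463 had a mean of 10.57, against 5.05 for Olfr1462 and 6.08 for Olfr1465. Between Olfr1462 and Olfr1465 the gene order holds 3 genes, of which Olfr1463 was measured, and it fell the furthest of all 51 neighbours. Olfr1463 had 8.47, 8.54, 8.40 and 8.20 in knockouts, against 10.72, 10.49, 10.43 and 10.64 in controls. The groups were far apart, with a change of -2.17 ± 0.09 (SE, adjusted p = 9.65e-07, limma). On the outer sides Olfr1461 fell by 1.58 and Olfr1466 by 0.94. The windows most identical to those of the pair belonged to Olfr1457 for Olfr1465 (68.2%) and Olfr1453 for Olfr1462 (58.7%), both in the same OR run. Olfr1457 had a change of -0.03 ± 0.09 (adjusted p = 0.917) and Olfr1453 one of -0.19 ± 0.09 (adjusted p = 0.298), and neither passed the test. Their control means were 4.95 for Olfr1457 and 5.39 for Olfr1453. The next windows in order of identity belonged to receptors that fell, Olfr1467 (60.8%, change of -1.45) and Olfr1472 (60.3%, -1.20) for Olfr1465, and Olfr1459 (57.1%, -1.02) and Olfr123 (54.8%, -0.99) for Olfr1462.

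Olfr401 was flanked by Olfr399 and Olfr402. Olfr402, with the similar start window, had 6.57, 6.83, 6.91 and 6.68 in knockouts, against 7.50, 7.56, 7.15 and 7.54 in controls. The groups did not overlap, and the change was -0.69 ± 0.11 (SE, adjusted p = 0.00201, limma). Olfr399 changed by -1.19, and all 10 neighbours of Olfr401 were called lower.

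Olfr917 and Olfr916 formed a like pair. Olfr916 had 6.58, 6.65, 6.73 and 6.17 in knockouts, against 7.92, 7.56, 8.11 and 8.05 in controls. Its change was -1.38 ± 0.15 (SE, adjusted p = 0.000143, limma), with no overlap of the groups. In controls the cluster of Olfr916 was brighter than that of Olfr917, and in knockouts it was dimmer, at 6.53 for Olfr916 and 6.80 for Olfr917. On the other side Olfr918 changed by -1.39, and 9 of the 10 neighbours were called lower.

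Some of the neighbours of Olfr574 and Olfr1230 did not pass the test. Beside Olfr574, the class I genes Olfr572 and Olfr575 had changes of -0.73 and -1.42, and 8 of 10 neighbours were called lower. Olfr568, one of the 2 not called, was at 7.27 in control 1, the mouse without Cre, and at 9.07 to 9.58 in the other controls. Control 1 also stood low for Olfr547 and Olfr631, given above, and for Olfr564 and Olfr585, given below. Whether the lack of Cre plays a part was not tested. Beside Olfr1230, Olfr1231 changed by -1.38, while Olfr1229 changed by -0.26 ± 0.12 (SE, adjusted p = 0.272) and did not pass the test. In the whole OR run around Olfr1230, 179 of 212 other measured clusters were called lower and 5 were at or above 0. In the run around Olfr574, 43 of 66 were called lower and 2 were at or above 0. Over all OR clusters, 853 of 1023 were called lower (83.4%) and 27 were at or above 0.

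**Figure D4:**
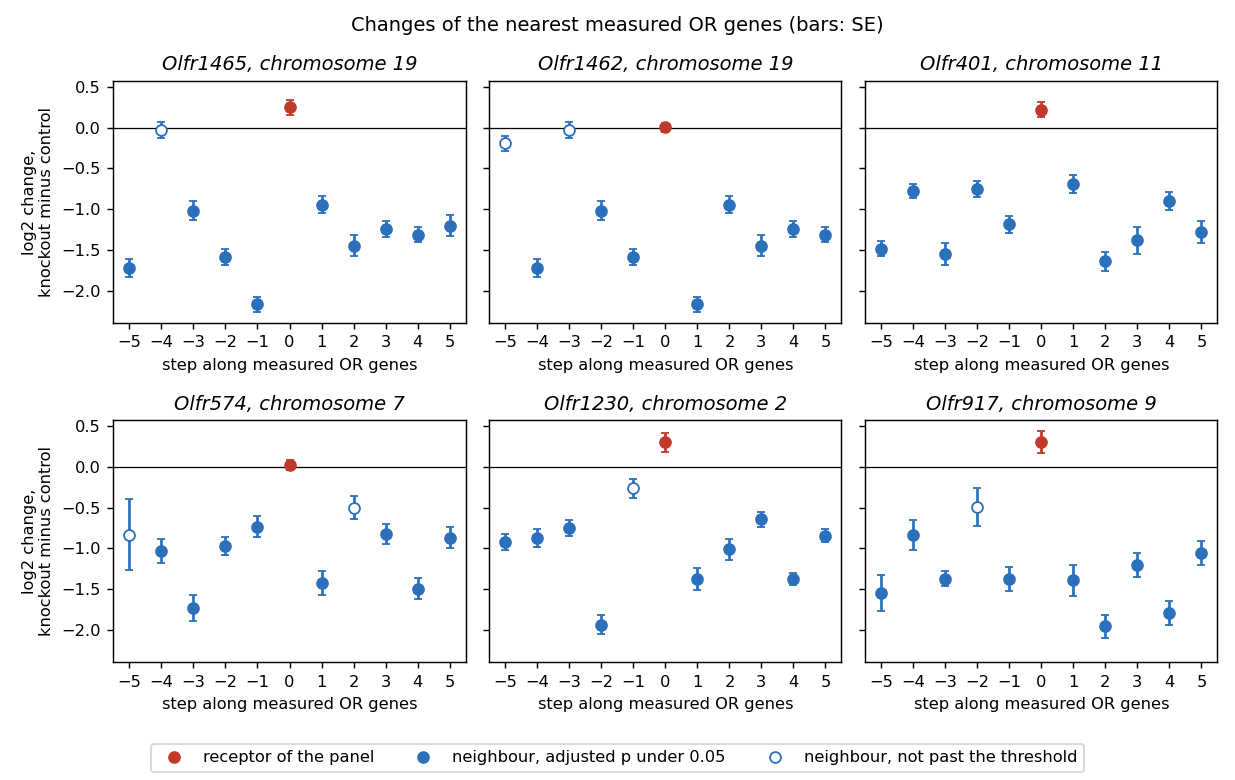
Change of each receptor (red, at 0 on the horizontal axis) and of the 5 measured OR genes on each side of it in gene order (blue), as knockout minus control on the log2 scale with SE. Filled blue points are neighbours called lower and open blue points did not pass the test. Every neighbour lies below 0, and Olfr1463, next to both chromosome 19 receptors, is the lowest at -2.17.

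Receptors of the same subfamily were called lower about as often as all ORs. Subfamilies were taken from the MOR numbers among the RefSeq synonyms, and 40 distinct relatives were measured, of which 34 were called lower (85.0%) and none higher, with a median change of -1.20, beside 83.4% and -1.04 over all OR clusters. Olfr1465 and Olfr1462 are MOR202-28 and MOR202-13, and 26 of the 28 other MOR202 clusters were called lower. All 5 relatives of Olfr401 in subfamily 255 were called lower, as were the only measured relatives of Olfr1230 (Olfr1189, change of -0.47) and Olfr917 (Olfr916). Of the 5 relatives of Olfr574 in subfamily 14, 1 was called lower, with a median change of -0.74. Like Olfr568, Olfr585 and Olfr564 were low in control 1, at 5.52 against 6.68 to 7.44 and 4.79 against 5.55 to 6.03 in the other controls. None of these was called, while Olfr561 and Olfr566 were not low in control 1. Many of these relatives are also neighbours, so the counts overlap.

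Most markers of mature OSNs fell. Of 16 measured markers of mature OSNs, 15 were called lower and none higher, with a median change of -0.49, beside 6.29% lower and 2.1% higher over all clusters. The largest change was that of Cnga4, which encodes a modulatory subunit of the cyclic nucleotide-gated channel of olfactory cilia, at -2.02 ± 0.12 (SE, adjusted p = 3.12e-06, limma). Gng13, a G protein gamma subunit, changed by -0.999, Adcy3, the olfactory adenylyl cyclase, by -0.98 and Cnga2, the main channel subunit, by -0.49. Omp, into which Cre is inserted, changed by -0.84 ± 0.15 (adjusted p = 0.00568), and all knockouts but only 3 of the controls carry this insertion. It was at 12.88, 12.80, 12.37 and 12.43 in knockouts, against 13.78 in control 1, without Cre, and 13.56, 13.22 and 13.27 in controls 2 to 4, with no overlap. The mean over the 16 markers was 11.77 to 11.85 in knockout arrays, against 12.42 to 12.44 in controls.

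Across genes of OR trafficking and odor transduction, 11 of 19 were called lower and none higher, with a median of -0.33. All 11 are also in the list of mature OSN markers above, so the counts overlap. No gene outside that marker list was called. Gnb1 (-0.04), Pde4a (-0.07), Grk3 (0.03) and Arrb2 (0.06) were among those that did not pass. The genes called lower included Rtp1 and Rtp2, chaperones that carry ORs to the cell surface, with changes of -0.33 and -0.42. Of 16 genes tied to OR gene choice, 4 were called lower: Adcy3, Atf5 (-0.43, a stress-response factor induced when an OR is expressed), Lhx2 and Ebf3 (-0.22, an O/E factor). Adcy3 is in the mature OSN and transduction lists too. Of 14 markers of immature OSNs, 2 were called lower (Stmn4 and Ncam1) and 1 higher (Tubb3, 0.41), with a median of 0.02. In the lists for sustentacular, basal, macrophage, blood, vomeronasal, and ensheathing and Schwann cells, no measured marker was called. Of 10 respiratory and gland markers, 1 (Foxj1) was called lower. Relative to the mean of the 16 mature OSN markers, the 6 receptors were higher in knockouts by 0.62 (Olfr1462) to 0.92 (Olfr917 and Olfr1230). That shift rests on a few chosen markers, among them Cnga4 (-2.02) and Omp (-0.84), into which Cre is inserted. The paper reports a small average reduction over its larger list of mature OSN mRNAs. The values given here are therefore not those of its scaling.

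The genes whose profile over the 8 arrays was most like each receptor were sought among 19937 genes, as a description. The highest Pearson r was 0.98 for Olfr1465 with Zeb1 (Spearman rho 0.98), 0.95 for Olfr1462 with Zfp462 (rho 0.95), 0.98 for Olfr401 with BC003965 (rho 0.90), 0.96 for Olfr574 with Dhrs7c (rho 0.93), 0.99 for Olfr1230 with Defa24 (rho 0.98) and 0.98 for Olfr917 with Tktl1 (rho 0.88). None of the 3 most alike genes of any of the 6 was an OR. The selection largely set this, because the 6 were chosen for not falling and most ORs fell. Among the 6 themselves, Olfr401 and Olfr917 had the highest r, at 0.94. The changes of these most alike genes ran from -0.03 (Zfp462) to 0.27 (Defa24). Defa24 had a control mean of 3.44, among the dimmest clusters on the array. The points share array and group, so such likeness among many genes carries no test.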

How the data were processed

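Mouse Gene 1.0 ST arrays were hybridized with equal amounts of total RNA per mouse. The authors deposited log2 expression values per transcript cluster, made with Affymetrix Expression Console (version, background correction and summarisation not given in the sources used here). All 8 columns were used as deposited. Clusters were named from the platform annotation, updated through Entrez ID with RefSeq tables (GRCm38.p6): 21789 of 35557 clusters had 1 symbol, 1621 several and 12147 none. The number of arrays, 4 per group, limits precision.

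The 23410 clusters with a symbol were fitted with lmFit and eBayes (limma 3.58.1, R 4.3.3), group as the only term, two-sided, with Benjamini-Hochberg adjustment over all of them, and called at 0.05. The step was tested on simulated data with independent noise, which held no shift shared by the clusters of an array. Values of the 6 receptors are means, SD and limma standard errors without tests. Neighbours were named by position, list genes by p, and alike genes by r. Where a gene had several clusters, the brightest was used. Windows were aligned globally (match 1, mismatch -1, gap opening -2, extension -0.5). The members and lists were chosen with earlier results of these data known. Alternatives were array median, quantile and mature OSN marker scaling, title series as a block, array weights, a filter on dim clusters, the t-test of the methods and leaving out each array. The authors scaled by a larger list of mature OSN mRNAs, which was not used here.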

Additional observations from a re-analysis of the deposited data

Results flagged for a closer look

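Among 24 genes, the 6 receptors and the genes described beside them, each group of 4 arrays was searched for a lone high or low value by Dixon's test, and 3 of 48 groups held one. Chance sets about 1 in 20 groups apart. Olfr1230 in control replicate 4 was at 6.41, above the other controls at 5.95 to 6.03, and without that array its difference was 0.41. Olfr402 in control replicate 3 was at 7.15, below the other controls at 7.50 to 7.56. Olfr1457 in control replicate 4 was at 5.15, above the other controls at 4.87 to 4.91.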

How the results depend on the processing

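The 6 differences and the counts of neighbours and relatives were recomputed under each alternative. Subtracting the mean of the mature OSN markers raised the differences to 0.92 for Olfr1230, 0.62 for Olfr1462, 0.86 for Olfr1465, 0.84 for Olfr401, 0.64 for Olfr574 and 0.92 for Olfr917. It put 228 OR clusters at or above 0 in place of 27, and called 3 neighbours and 4 subfamily relatives higher and 3 of the mature OSN markers lower. These moves follow from the shift that this scaling adds to every cluster. The difference of Olfr1462 was 0.061 with array medians subtracted and -0.051 after quantile normalization, and that of Olfr574 0.08 and -0.03, and the cause was not tested. Among clusters with a mean above 8.50, none of the 6 receptors was left, 0 OR clusters were at or above 0, and the 13 neighbours left were all called lower. Leaving out each array in turn gave 22 to 34 OR clusters at or above 0, 44 to 46 neighbours called lower, 33 to 37 relatives called lower and differences of -0.01 to 0.06 for Olfr574, -0.02 to 0.02 for Olfr1462, 0.14 to 0.29 for Olfr401, 0.20 to 0.33 for Olfr1465, 0.24 to 0.41 for Olfr1230 and 0.21 to 0.41 for Olfr917. The sign of Olfr574 and Olfr1462 thus turned with single arrays. The methods' t-test called 44 neighbours lower, both at an unadjusted p under 0.01 and after Benjamini-Hochberg adjustment. In all, 152 recomputed values kept close to their main value and 14 moved. The subfamily relatives and the window alignments were chosen after seeing the data, in place of relatives by protein identity, which was not run because no protein sequences were used here. The labels give no replicate numbers that pair mice. With title series as a block 45 neighbours were called lower. The 6 differences and the count of OR clusters at or above 0 could not change there, because each series holds as many knockouts as controls. These fixed values are among the 152.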
